A study of Mus musculus with 34 samples.

Results

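The 26S proteasome is the large protease that unfolds and degrades ubiquitin-tagged proteins, and the 37 mouse genes considered here encode its subunits and the PA28 caps. Of these, 32 are constitutive subunit genes and 5 are the immune subunit genes Psmb8, Psmb9, Psmb10, Psme1 and Psme2. The genes were taken as a list of symbols by their function as subunits, chosen with earlier results of these data known, and every deposited ChIP-seq peak whose midpoint lay within 1 kb of the 5′ end of the GENCODE gene (mm10 coordinates) was assigned to its promoter. The same rule was applied to all 21911 protein-coding genes. ChIP-seq recovers the DNA crosslinked to one protein, and a peak is a place where reads of that DNA pile up above the input.

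The study asked how members of the AP-1 family, which bind DNA as pairs through a shared leucine zipper, come to bind different sites in macrophages. Thioglycollate-elicited macrophages (TGEMs), which are recruited to the peritoneum by an irritant, came from male C57Bl/6EiJ and Balb/cJ mice of 8 weeks and from male PPARgKO mice on the C57Bl6 background. The age of the PPARgKO mice, the PPARg allele and the promoter that drives its deletion were not given in the sources used here. Cells received PBS (Veh) or Kdo2 lipid A (KLA), a ligand of the endotoxin receptor TLR4, for 1 h at 100 ng/mL. The 30 peak lists cover the AP-1 members ATF3, Jun (labelled cJun), JunD, Fos, Fra2 (the product of Fosl2) and JunB in C57Bl/6EiJ Veh and KLA, the same set without Fra2 in Balb/cJ Veh and KLA, and ATF3, Jun and JunD in PPARgKO Veh. The partners PU.1 and CEBPa in Veh and KLA and PPARg in Veh, all in C57Bl/6EiJ, complete them. No PPARg alteration is labelled in the C57Bl/6EiJ and Balb/cJ groups, and each treatment is compared with PBS in the same strain.

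The 20S core of the proteasome is a barrel of alpha and beta rings, with the proteolytic sites on some of the beta subunits. The 19S cap holds a ring of ATPases that unfold the substrate and a set of non-ATPase subunits that recognise ubiquitin and remove it. Interferon-responsive cells exchange the catalytic beta subunits for Psmb8, Psmb9 and Psmb10, and the PA28 activator made of Psme1 and Psme2 opens the barrel, which changes the peptides offered on MHC class I. When proteasome activity falls, the bZIP factor Nfe2l1, which pairs with small Maf proteins, raises the genes of the constitutive subunits through antioxidant response elements (ARE), whose core resembles the AP-1 site.

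Each condition had 1 list, in which the replicate experiments had already been combined by their irreproducible discovery rate, so no difference between lists carries a replicate error and no test was made. List length ran from 463 peaks (C57Bl/6EiJ JunB Veh) to 41573 (C57Bl/6EiJ PU.1 Veh), and the Balb/cJ Fos Veh and Balb/cJ JunB Veh lists held 0 and 9 peaks, so that their absence of promoter peaks says nothing about binding. Counts summed over the peaks of a list ran from 9196 to 13809143, and the read totals of the libraries are unknown. Between 6.41% and 52.1% of the peaks of a list lay at promoters, the highest share being that of the short Fos Veh list. PU.1 peaks in Veh were present at the promoters of 5 of 6 macrophage markers, Csf1r being the exception, and at 2 of 13 markers of other cells (Cd2 and S100a8).

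The exact AP-1 site of the TRE type (TGACTCA or TGAGTCA) was absent from all proteasome promoter windows searched, and where AP-1 peaks near these genes held one, it lay off the start site. The peaks of the 6 members with no RefSeq promoter sequence, Psmb2 among them, were not searched for these sites. The stretches below are shown because they are the TREs found in the peaks of the most AP-1 lists (9 each for Psmd4 and Psma3, 7 for Psmd11), in mm10 and on the strand of the gene, with the TRE in capitals. The upstream Psmd4 site (chr3:95043473-95043519, minus strand) lies 882 bp before the start, the Psma3 site (chr12:70974942-70974988, plus strand) 344 bp after it in an intron, and the Psmd11 site (chr11:80429387-80429433, plus strand) 795 bp after it, also in an intron.

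Psmd4 TRE: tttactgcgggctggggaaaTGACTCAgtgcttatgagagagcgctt
Psma3 TRE: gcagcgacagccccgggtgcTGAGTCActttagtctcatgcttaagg
Psmd11 TRE: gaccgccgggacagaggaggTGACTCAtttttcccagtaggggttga

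Among the members whose peaks were searched, the CRE type of AP-1 site (TGACGTCA) appeared in the AP-1 peaks of Psmb8 only. The site lay 56 bp before the start (chr17:34197641-34197688, plus strand), inside the ATF3 peaks of C57Bl/6EiJ Veh, C57Bl/6EiJ KLA and PPARgKO Veh. It is shown with the CRE in capitals.

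Psmb8 CRE: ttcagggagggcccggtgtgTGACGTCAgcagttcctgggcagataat

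By contrast, the promoter of Psmd8, the constitutive gene with AP-1 peaks in the most lists, held none of the TRE, CRE, ARE, ETS or interferon-response letters in the 222 bases upstream of its start (chr7:29180702-29180923, minus strand). Psmc6 (chr14:45329574-45329787, plus strand) held an ARE and an ETS site (CCGGAAG), both in capitals. Both stretches come from the RefSeq promoter windows of GRCm38.p6, cut at the most upstream start so that no transcribed base is shown.

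Psmd8 promoter: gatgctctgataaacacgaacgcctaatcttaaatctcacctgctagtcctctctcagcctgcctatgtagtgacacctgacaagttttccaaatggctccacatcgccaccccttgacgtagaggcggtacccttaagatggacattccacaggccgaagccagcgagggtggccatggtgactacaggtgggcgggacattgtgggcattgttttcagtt
Psmc6 promoter: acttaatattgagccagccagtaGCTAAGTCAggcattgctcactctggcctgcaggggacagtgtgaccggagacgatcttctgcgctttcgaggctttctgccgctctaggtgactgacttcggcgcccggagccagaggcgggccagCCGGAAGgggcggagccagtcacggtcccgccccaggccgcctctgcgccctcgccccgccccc

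AP-1 peaks were found at most proteasome promoters. In each treatment of both C57Bl/6EiJ and Balb/cJ, the JunD list held the most members of any AP-1 list. At least 1 of the 25 AP-1 lists placed a peak at 35 of the 37 promoters, beside 41.8% of all protein-coding promoters. In resting C57Bl/6EiJ macrophages, JunD had a peak at 18 members (48.6%, against 15.0% of all promoters), Jun at 13 (35.1%, against 9.67% of all), ATF3 at 12 (32.4%, against 13.7% of all) and Fra2 at 7 (18.9%, against 4.08% of all). The short lists reached few of them, with 1 member for Fos Veh (4.86% of all promoters) and 0 for JunB Veh (0.178% of all). After KLA the members with a peak numbered 18 for JunD (17.0% of all), 17 for ATF3 (17.0% of all), 9 for Fos (9.6% of all), 8 for Jun (9.49% of all), 3 for Fra2 (4.08% of all) and 1 for JunB (3.94% of all). The JunB KLA share of members (2.7%) was the exception among the KLA lists, in that it did not exceed the share of all promoters.

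Among the C57Bl/6EiJ lists, those of PPARg and PU.1 reached more of these promoters than any AP-1 list. PPARg, the lipid-activated nuclear receptor, had peaks at 31 members (83.8%, against 31.9% of all promoters). PU.1, the lineage-determining ETS factor of macrophages, had peaks at 23 in Veh (25.5% of all) and 28 in KLA (27.4% of all). CEBPa, the other myeloid partner, reached 8 in Veh (6.29% of all) and 7 in KLA (6.65% of all). Ribosomal protein genes, a set of 76 other housekeeping genes, are given for comparison. Of them, 76.3% had a PPARg peak, 64.5% a PU.1 Veh peak, 43.4% a JunD Veh peak and 22.4% an ATF3 Veh peak. Across the 27 lists of more than 1000 peaks, the proteasome share was above that of all promoters in 25 and below the ribosomal share in 2. In PPARgKO ATF3 Veh, for example, 56.8% of proteasome and 34.2% of ribosomal promoters had a peak.

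**Figure D1:**
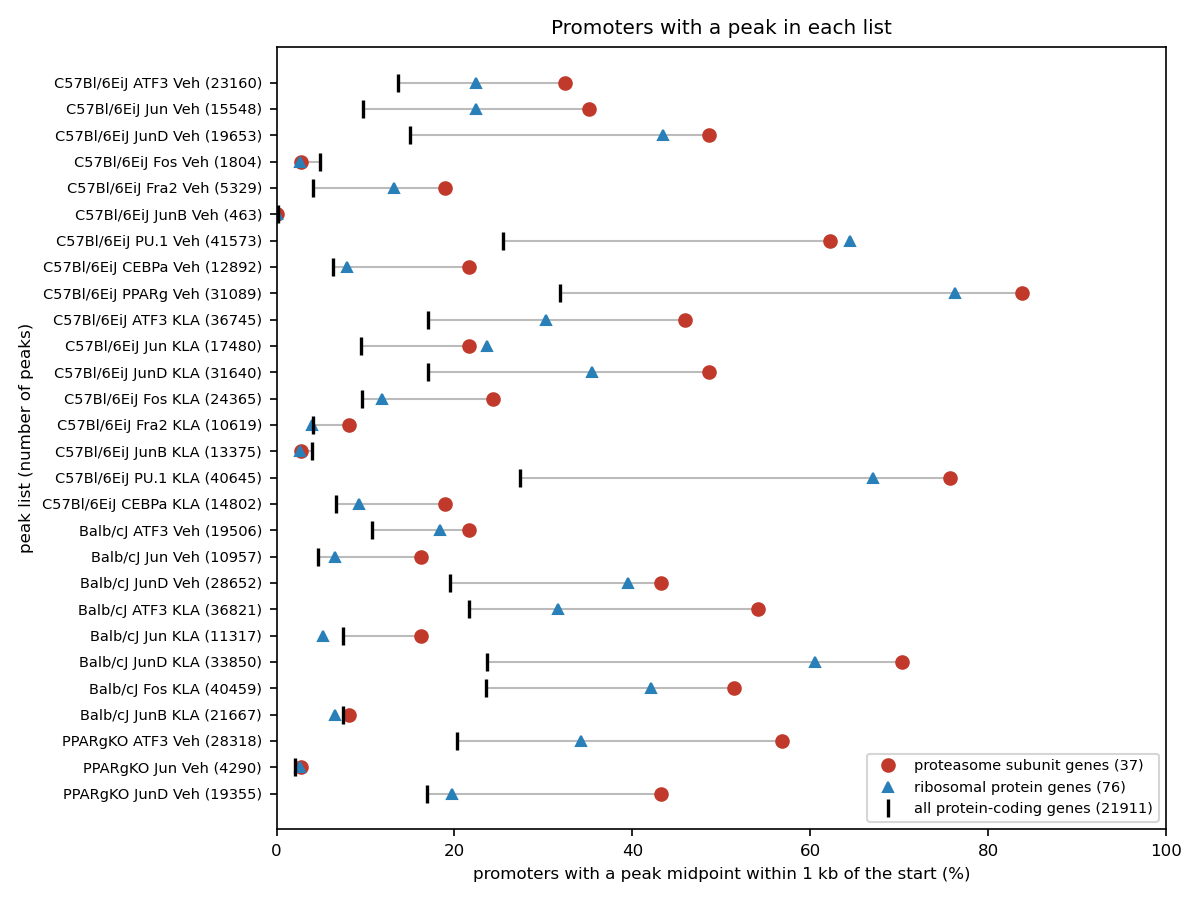
Share of promoters with a peak midpoint within 1 kb of the gene start (x axis, percent) in each list with more than 9 peaks (y axis, with its number of peaks), for the 37 proteasome subunit genes (red circles), 76 ribosomal protein genes (blue triangles) and all 21911 protein-coding genes (black bars). The red circles lie right of the black bars in all but the C57Bl/6EiJ Fos Veh, JunB Veh and JunB KLA lists, and reach 83.8% for PPARg.

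Peaks were spread unevenly over the subunits. Of the 37 genes, 8 had an AP-1 peak in over 10 of the 25 lists, 10 in 6 to 10 lists, 17 in 1 to 5 lists and 2 in none. The median was 5.5 lists for constitutive and 5 for immune genes, and 0 for all protein-coding genes. By role, the beta ring had a median of 10 lists (7 genes), the 19S non-ATPase subunits 8 (11 genes), the 19S ATPases 4 (6 genes) and the alpha ring 3 (7 genes). Every role except the immunoproteasome beta genes and the single PA28 gamma gene thus held both genes with many lists and genes with few. Psme3, which encodes the nuclear PA28 gamma cap, had 1 AP-1 peak, in ATF3 Veh at the 3.03 percentile of that list by count.

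**Figure D2:**
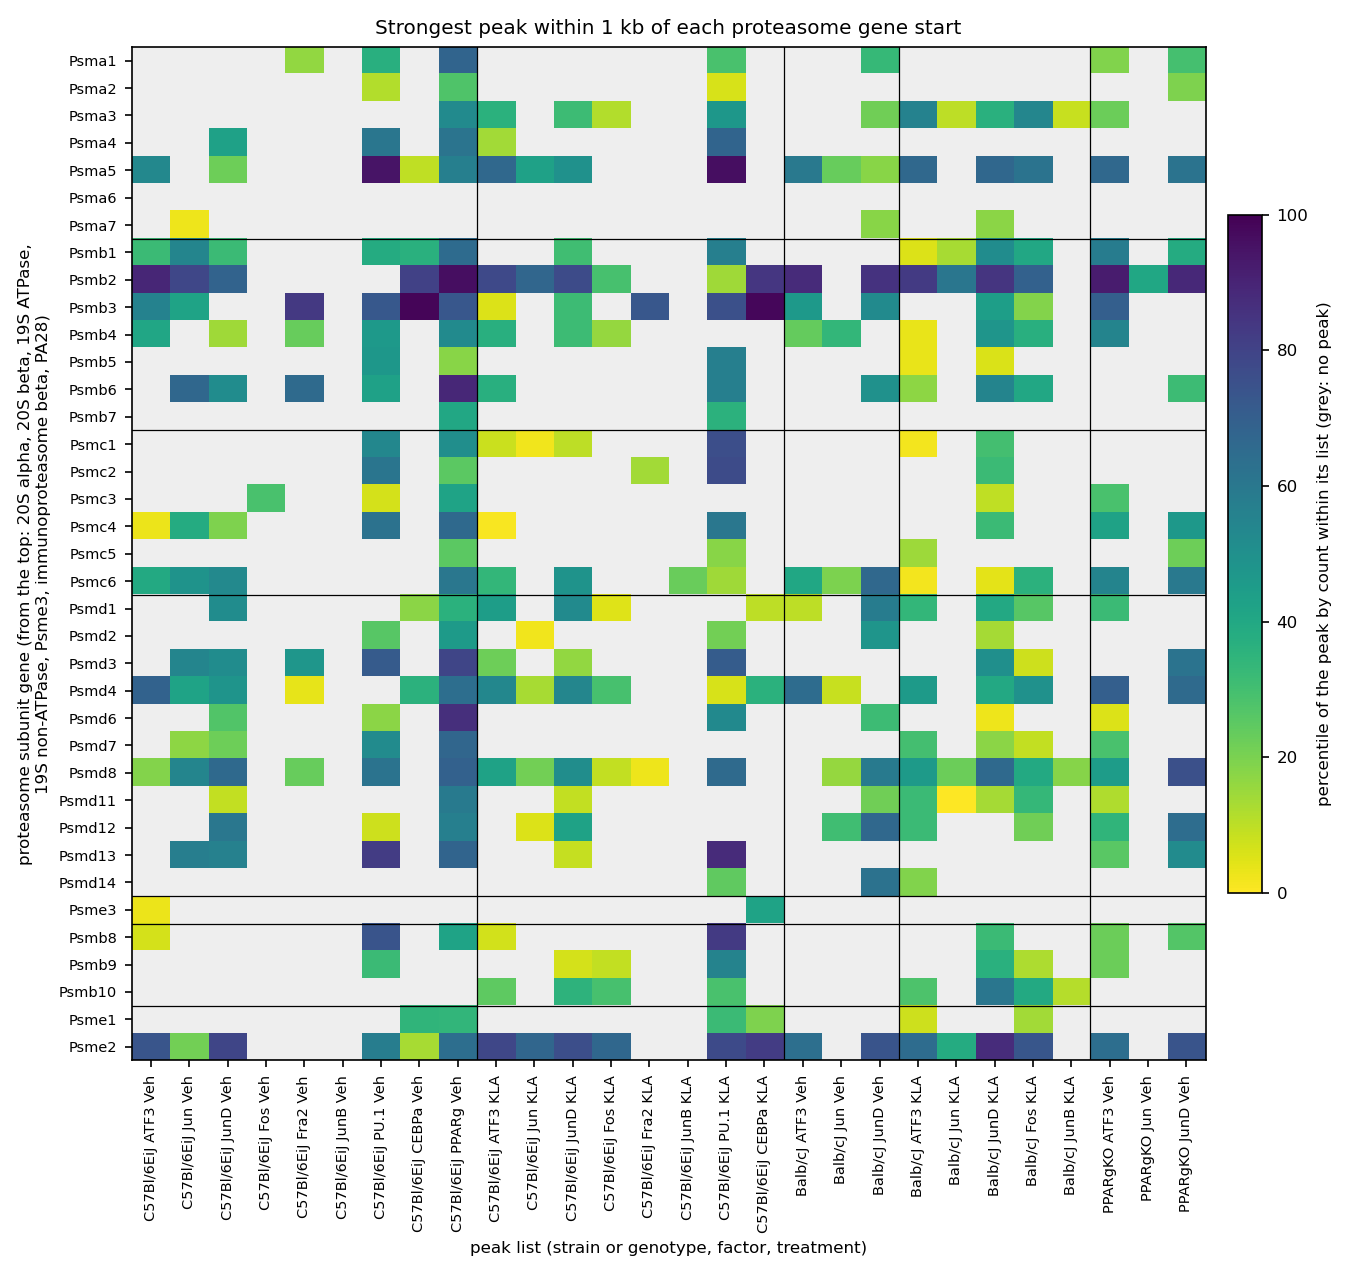
Percentile by count, within its own list, of the strongest peak within 1 kb of each of the 37 gene starts (rows, grouped by role) in the 28 lists with more than 9 peaks (columns, split by strain or genotype and treatment); grey marks the absence of a peak. Psmb2, Psma5, Psmd4, Psmd8 and Psme2 form the most continuous rows, and Psmb10 is coloured only in KLA columns.

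Psmd8, a 19S non-ATPase subunit (chr7:29174188-29180701, minus strand), led with AP-1 peaks in 18 of 25 lists, 8 of the 14 Veh and 10 of the 11 KLA lists, and 1.59% of all promoters had peaks in at least as many. Its peaks sat between 11 bp before and 252 bp after the start, mostly in transcribed sequence, and ranked in the middle of their lists (median percentile 40.7), from 2.7 in Fra2 KLA to 75.4 in PPARgKO JunD Veh. Its Balb/cJ JunB KLA peak (count 26, percentile 18.3) was 1 of only 3 member peaks in that list.

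Psmb2, a beta ring subunit (chr4:126677630-126709714, plus strand), had the highest median percentile of all members, 78.3 over 16 AP-1 lists. It did not rank highest in every list, and in C57Bl/6EiJ Fos KLA its peak stood at 29.0, against 66.5 for Psme2. In ATF3 Veh its peak held a count of 131 (percentile 89.2) in C57Bl/6EiJ, 79 (87.6) in Balb/cJ and 87 (92.2) in PPARgKO, and the last was the only AP-1 peak at any member to reach the 90th percentile. The PPARg peak there ranked at 96.4, and all of its AP-1 midpoints lay between 37 bp before and 7 bp after the start. PU.1 did not share this rank, with no Psmb2 peak in Veh and one at the 14.4 percentile in KLA.

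Psmd4, which encodes a ubiquitin receptor of the 19S cap (chr3:95032694-95042614, minus strand), had peaks in 15 AP-1 lists, none of which had its strongest peak at the start itself. All but one lay in a pair of upstream positions, which in C57Bl/6EiJ ATF3 KLA were 472 bp (count 79, percentile 53.7) and 859 bp (count 62, percentile 38.2) before the start. The exception was a weak further peak of C57Bl/6EiJ Jun Veh in an intron 310 bp downstream (count 12, percentile 0.576). The TRE shown above falls in the farther upstream position, within the central 200 bp of peaks from 9 AP-1 lists and of PU.1 KLA. The nearer position was the stronger in every list with both except Balb/cJ Fos KLA, where each had a count of 64.

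Psmc6, a 19S ATPase (chr14:45329788-45349705, plus strand), had peaks in 14 AP-1 lists, most of them around 150 bp upstream, and its ARE lay in the central 200 bp in 12 of these lists. In C57Bl/6EiJ its JunD peak ranked at 52.9 in Veh and 48.8 in KLA, and in Balb/cJ at 66.1 in Veh and 4.16 in KLA, where the peak sat 530 bp upstream instead. Psma5, an alpha ring subunit (chr3:108256926-108279974, plus strand), had peaks in 13 AP-1 lists. Its ATF3 peaks ranked between 53.4 and 66.3 in the 5 ATF3 lists, whereas its PU.1 peaks were among the strongest in the genome (94.8 in Veh, 96.2 in KLA).

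Psma6 and Psmb7 had no AP-1 peak. Psmb7, the catalytic beta subunit that Psmb10 replaces, had only a PPARg and a PU.1 KLA peak. For Psma6 the result depends on the start used: GENCODE lists transcripts that begin as far as 14553 bp downstream, and with the starts of all transcripts the gene had peaks in 10 AP-1 lists. Psmb3, a beta ring subunit, had the strongest CEBPa peaks of the set, 817 bp upstream in Veh (count 259, percentile 98.5) and 835 bp upstream in KLA (count 242, percentile 98.3); it is named here because of those values.

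Compared with other bound promoters, proteasome peaks were more often close to the start and somewhat less often in the upper part of their list. The members had 279 AP-1 peaks, of which 197 (70.6%) had their midpoint within 250 bp of the start, beside 61.0% of the 64954 AP-1 peak and gene pairs of all genes. By the gene model, 148 midpoints were upstream of the gene, 84 in untranslated exon sequence, 32 in introns and 15 in coding exons. Of the 249 combinations of a member and an AP-1 list with a peak, 81 (32.5%) had the strongest peak in the upper 50% of its list by count, beside 37% (21634) of the 58395 such combinations over all genes. Cutting the 20 AP-1 lists that are long enough to their strongest 5000 peaks left between 0 and 6 members (0.0% to 16.2%) with a peak in each, beside 0.863% to 3.73% of all promoters. The 6 members were those of C57Bl/6EiJ Fra2 Veh, whose 5329 peaks were barely cut. The member share was above that of all promoters in 11 of the 20 lists and below it in 9, where 1 member already makes 2.7%. Over these lists together, 6.88% of the member and list combinations with a peak kept one, beside 11.5% of those of all genes. The median percentile at members was below that of all promoter peaks in 12 of the 22 lists with at least 5 members, and ran from 16.0 (C57Bl/6EiJ Fos KLA, where all promoters stood at 36.6) to 59.3 (PPARg, all promoters 55.3). In all, 9 members share the neighbourhood with another protein-coding start, among them Psmb9 with Tap1 (211 bp), Psme2 with Rnf31 (595 bp) and Psmb1 with Tbp (137 bp), and their peaks cannot be told apart from those of the neighbour.

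The proteasome promoters with an AP-1 peak differed between Veh and KLA, and KLA lists held more members than Veh lists for some factors and fewer for others. For ATF3 in C57Bl/6EiJ, 10 of 12 Veh promoters kept a peak (73.1% of all Veh promoters did) and 7 of the other 25 gained one (8.12% of all). For JunD, 13 of 18 kept it (68.0% of all) and 5 of 19 gained one (7.99% of all). For Jun, only 4 of 13 kept it (49.7% of all), while 4 of 24 gained one (5.18% of all). Jun thus had fewer member peaks in KLA, in a list that was the longer one (17480 against 15548 peaks). The 9 that lost Jun were Psma7, Psmb1, Psmb3, Psmb6, Psmc4, Psmc6, Psmd3, Psmd7 and Psmd13. All are constitutive, but so were 12 of the 13 members with a Jun Veh peak, so no contrast with immune genes follows. Fra2 kept 2 of 7 (31.9% of all) and gained 1 of 30 (2.89% of all), and Fos gained 9 of 36 (8.02% of all). At these promoters PU.1 kept 19 of 23 (85.1% of all) and gained 9 of 14 (7.56% of all), and CEBPa kept 6 of 8 (67.9% of all) and gained 1 of 29 (2.54% of all).

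In Balb/cJ, ATF3 and JunD both had peaks at more members in KLA. ATF3 kept 7 of 8 (82.3% of all) and gained 13 of 29 (14.4% of all), JunD kept 13 of 16 (67.5% of all) and gained 13 of 21 (13.2% of all), and Jun kept 1 of 6 (56.1% of all) and gained 5 of 31 (5.15% of all). These Balb/cJ gains and that of ATF3 in C57Bl/6EiJ went with longer KLA lists, and list length moved the result. With the Veh and KLA lists held to equal numbers of their strongest peaks, ATF3 had 12 members in Veh and 7 in KLA in C57Bl/6EiJ (13.7% and 9.16% of all promoters) and 8 and 4 in Balb/cJ (10.7% and 8.96% of all). JunD had 18 and 8 in C57Bl/6EiJ (15.0% and 7.98% of all) but 16 and 20 in Balb/cJ (19.5% and 20.4% of all). In C57Bl/6EiJ the share of all promoters was thus lower in KLA as well.

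Psma3, Psmb10 and Psmc1 gained AP-1 peaks on KLA in the most comparisons, 5 each, and none of them lost one. The gains were counted in lists of full length, and the KLA list was the longer one in each of these comparisons. The share of all promoters with 5 such gains was not computed. Psma3, an alpha ring subunit, gained ATF3, Fos and JunD in C57Bl/6EiJ and ATF3 and Jun in Balb/cJ, all in the intron downstream of the start. The TRE shown above lay in the central 200 bp of peaks from 9 AP-1 lists, and the Balb/cJ Jun KLA peak held a further TRE 544 bp after the start. In Balb/cJ the JunD peak was present in Veh already (count 26, percentile 21.8) and remained in KLA (count 39, percentile 36.6). Psmc1, a 19S ATPase, gained ATF3, Jun and JunD in C57Bl/6EiJ and ATF3 and JunD in Balb/cJ, all near the start and all weak, with percentiles from 1.67 to 29.9. Psmb6, which encodes a catalytic beta subunit, lost peaks most often, in 3 comparisons (Jun, JunD and Fra2 in C57Bl/6EiJ). It also gained an ATF3 peak in both strains and kept its JunD peak in Balb/cJ.

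**Figure D3:**
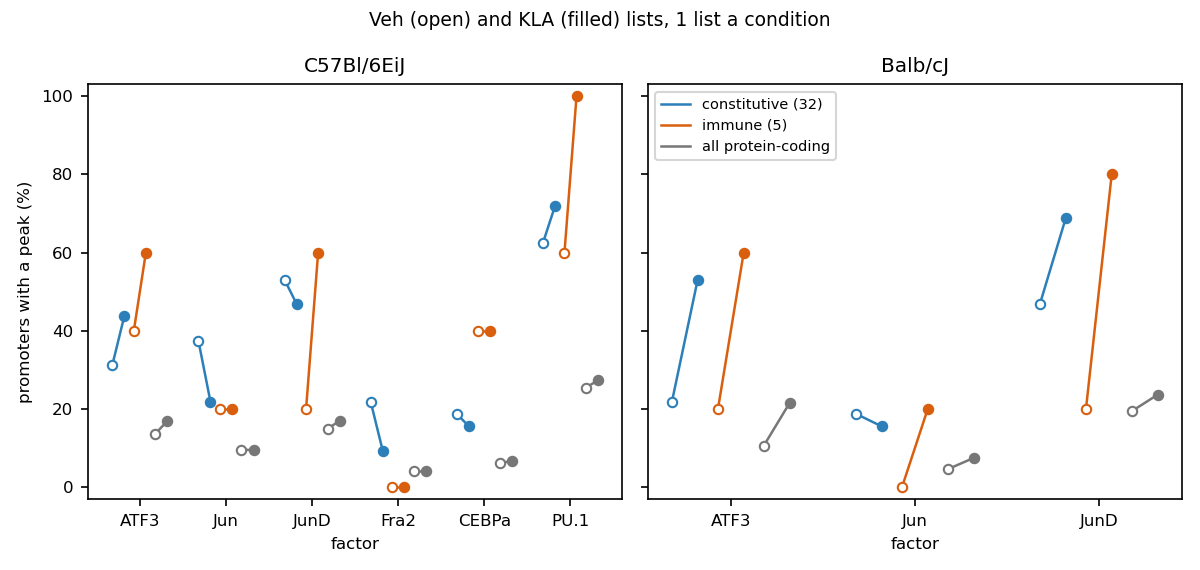
Share of promoters with a peak (y axis, percent) in the Veh (open circle) and KLA (filled circle) list of each factor (x axis) in C57Bl/6EiJ (left) and Balb/cJ (right), for the 32 constitutive genes (blue), the 5 immune genes (orange) and all protein-coding genes (grey). Immune shares are higher in KLA or level in each pair, with 20.0% in Veh and 60.0% in KLA for C57Bl/6EiJ JunD, and constitutive shares are lower in KLA for Jun, JunD, Fra2 and CEBPa in C57Bl/6EiJ and for Jun in Balb/cJ.

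Of the immune genes, Psmb9, Psmb10 and Psme1 had their AP-1 peaks mainly in KLA lists, and Psmb8 and Psme2 had them in both treatments. Over ATF3, Jun and JunD in both strains, immune promoters had a peak in 6 of 30 Veh combinations (20.0%) and 15 of 30 KLA combinations (50.0%), constitutive promoters in 67 and 80 of 192 (34.9% and 41.7%), and all promoters in 12.2% and 16.1%. With lists of equal length, the immune values were 6 and 9 of 30, the constitutive values 67 and 40 of 192, and all promoters 12.2% and 10.2%. The strains differed in the immune values at equal length, with 4 and 3 of 15 in C57Bl/6EiJ (all promoters 12.8% and 8.34%) and 2 and 6 of 15 in Balb/cJ (all promoters 11.6% and 12.1%). The immune share over at least 1 of the 12 C57Bl/6EiJ AP-1 lists was 4 of 5 against 26 of 32 constitutive genes. The share of all promoters over these 12 lists is not given here, so neither value has a background beside it. The 5 genes are too few for more than a description, and both Psmb8 with Psmb9 and Psme1 with Psme2 are close neighbours on their chromosomes.

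Psmb10 (chr8:105935735-105938444, minus strand), the immune counterpart of Psmb7, had AP-1 peaks in 7 of the 11 KLA lists and 0 of the 14 Veh lists. Among all protein-coding promoters, 0.388% had peaks in at least 7 KLA lists and in no Veh list. That pattern was picked after the Psmb10 values were seen. The C57Bl/6EiJ JunB, Balb/cJ JunB and Balb/cJ Fos Veh lists held 463, 9 and 0 peaks, so absence there says little. With Veh and KLA lists of equal length, 1 immune gene had a KLA peak for ATF3 in each strain and for C57Bl/6EiJ JunD. Psme2 ranked above Psmb10 in those lists, so the Psmb10 peaks there were cut. For Balb/cJ JunD, 4 of 5 immune genes had one, Psmb10 among them. The strongest C57Bl/6EiJ KLA peaks held counts of 51 for ATF3 (percentile 24.8), 38 for Fos (29.0) and 223 for JunD (35.5). In Balb/cJ KLA they held 31 for ATF3 (27.8), 53 for Fos (39.1), 23 for JunB (11.0) and 59 for JunD (60.7). Both strains showed a pair of positions, one near the start and one further downstream (359 bp in C57Bl/6EiJ JunD KLA, 416 bp in Balb/cJ JunD KLA). PU.1 had its Psmb10 peak in KLA only, 313 bp downstream (count 44, percentile 28.9). Jun and Fra2 had none there in either treatment.

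Psmb9 (chr17:34181987-34187764, minus strand), which replaces Psmb6 in the immunoproteasome, had Fos and JunD peaks in KLA in both strains. Their percentiles were 9.21 and 6.29 in C57Bl/6EiJ and 12.4 and 36.6 in Balb/cJ, all with midpoints between 3 bp before and 46 bp after the start. PU.1 was there in Veh (percentile 31.9) and KLA (55.1). A further peak, in PPARgKO ATF3 Veh, sat apart at 357 bp downstream of the GENCODE start. RefSeq places the Psmb9 start 434 bp downstream of that start, so this peak is closer to the RefSeq start.

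Psmb8 (chr17:34197721-34201454, plus strand), which replaces Psmb5, had weak ATF3 peaks near the CRE shown above, at percentile 6.53 in C57Bl/6EiJ Veh, 6.7 in C57Bl/6EiJ KLA and 22.3 in PPARgKO Veh. A separate position near 620 bp downstream held strong PU.1 peaks (73.9 in Veh, 83.0 in KLA) and the JunD peaks of PPARgKO Veh (26.9) and Balb/cJ KLA (31.7). So the ATF3 and JunD peaks of this gene did not share a place. RefSeq places the Psmb8 start 474 bp downstream of the GENCODE start, closer to the JunD than to the ATF3 peaks.

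Psme2 (chr14:55587441-55591113, minus strand), the beta subunit of PA28, was among the members with the most AP-1 lists. It had peaks in 15 AP-1 lists, 7 of them Veh and 8 KLA, at a median percentile of 73.3. JunD held 78 counts in C57Bl/6EiJ Veh (percentile 79.2), 427 in C57Bl/6EiJ KLA (75.9), 67 in Balb/cJ Veh (74.1), 109 in Balb/cJ KLA (87.2) and 55 in PPARgKO Veh (73.9). Most lists had the strongest peak 15 to 66 bp after the start, and several added peaks about 915 bp downstream and close to the Rnf31 start. Psme1 (chr14:55578123-55581529, plus strand), its partner subunit, had only 2 AP-1 peaks, in Balb/cJ ATF3 KLA (percentile 7.59) and Balb/cJ Fos KLA (14.0), and CEBPa peaks in Veh (34.7) and KLA (19.4). The partners thus differed widely in the number of AP-1 lists.

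**Figure D4:**
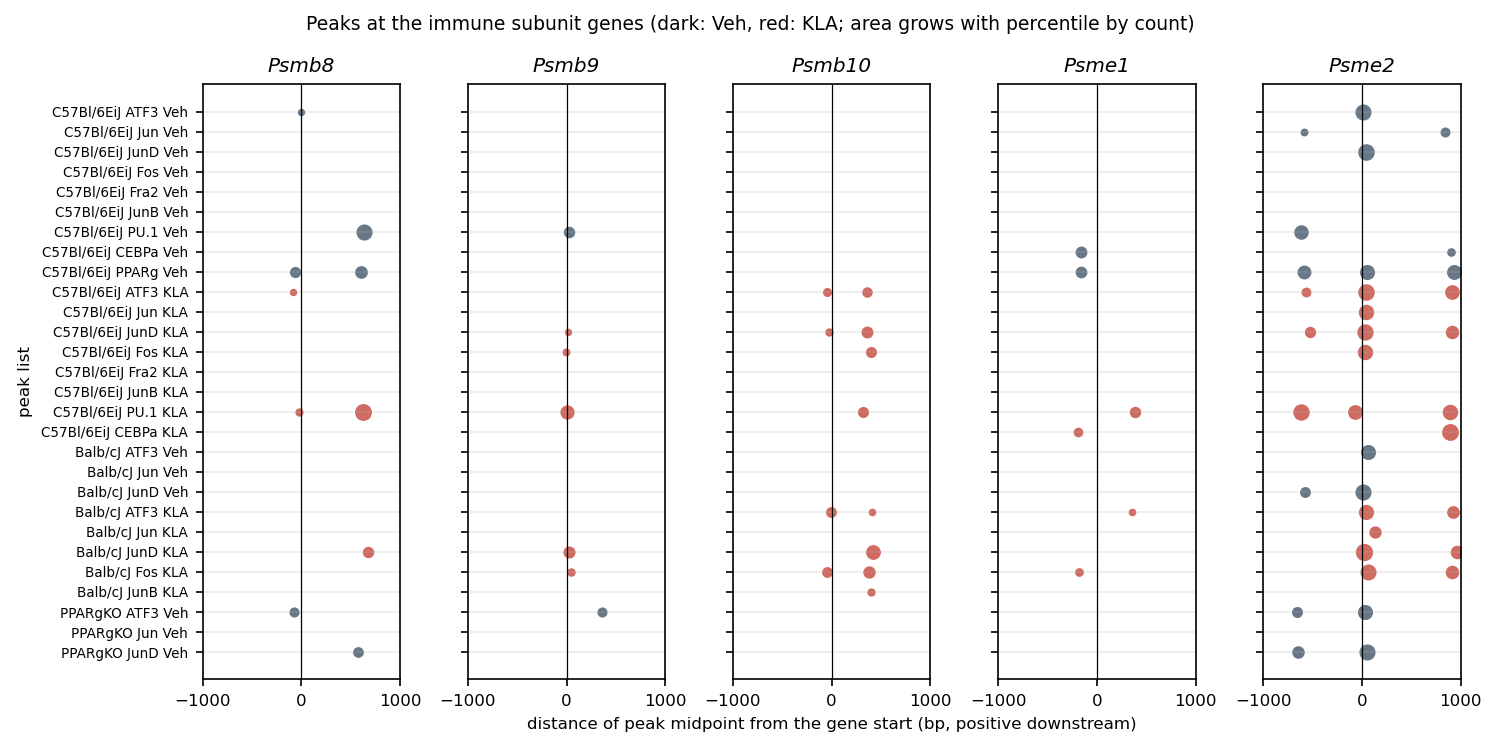
Position of every peak at the 5 immune subunit genes (x axis, bp from the gene start, positive downstream) in each list (y axis). Dark points are Veh, red points KLA, and the area grows with the percentile by count. Psmb10 shows red points only, in a pair of positions, and Psme2 shows points near the start in both treatments.

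Between strains, the share of member promoters bound in both was above that of all promoters in 4 of 8 comparisons and below it in the others. In Veh, ATF3 was shared at 7 of the 13 members bound in either strain (45.2% of all promoters bound in either were shared), Jun at 3 of 16 (25.9% of all) and JunD at 10 of 24 (41.5% of all). In KLA, ATF3 was shared at 12 of 25 (57.7% of all), Jun at 3 of 11 (36.9% of all), JunD at 16 of 28 (49.8% of all), Fos at 9 of 19 (36.0% of all) and JunB at 0 of 4 (34.3% of all). All 9 C57Bl/6EiJ Fos KLA members were also Balb/cJ Fos KLA members, as were 1924 of all 2104 C57Bl/6EiJ Fos KLA promoters. The Balb/cJ Fos KLA list was the longer one (40459 against 24365 peaks). Psmb2, Psmd8 and Psme2 were shared in 6 of the 8 comparisons each, more than any other member. Psmc4, a 19S ATPase, had a peak in C57Bl/6EiJ alone in 4 comparisons and in Balb/cJ alone in 1. Psma3 and Psmd11 had one in Balb/cJ alone in 3 comparisons each and in C57Bl/6EiJ alone in 0. Psmb1, Psmd7 and Psmd12 also had one in Balb/cJ alone in 3 each, but in C57Bl/6EiJ alone in 3, 2 and 2. Where both strains had a peak, the midpoints lay a median of 30 bp apart, and 51 of 60 pairs were within 100 bp.

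In PPARgKO macrophages, Jun peaks at proteasome promoters were almost all missing, while those of ATF3 and JunD were not. Jun kept 1 of 13 members (14.7% of all Jun promoters were kept) and gained 0 of 24 (0.677% of all). In total 1 member had a PPARgKO Jun peak (2.03% of all promoters). The member kept was Psmb2 (count 17, percentile 40.5). The PPARgKO Jun list was also short, 4290 peaks against 15548, and the strongest 4290 peaks of the C57Bl/6EiJ list held 1 member as well, so a loss of Jun and a shallower list cannot be told apart here. ATF3 kept 11 of 12 (78.3% of all) and gained 10 of 25 (11.0% of all), for 21 members in PPARgKO (20.3% of all promoters). JunD kept 12 of 18 (54.8% of all) and gained 4 of 19 (10.2% of all), for 16 members (16.9% of all promoters). Psma1 gained peaks of both ATF3 and JunD, and Psmd7 lost those of both Jun and JunD and gained one of ATF3. The C57Bl/6EiJ Veh lists serve as the reference both here and in the KLA and strain comparisons.

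The Balb/cJ lists gave the remaining shares. In Veh, members with a peak numbered 16 for JunD (19.5% of all promoters), 8 for ATF3 (10.7% of all) and 6 for Jun (4.66% of all). In KLA they numbered 26 for JunD (23.7% of all), 20 for ATF3 (21.6% of all), 19 for Fos (23.6% of all), 6 for Jun (7.52% of all) and 3 for JunB (7.51% of all). JunD KLA in Balb/cJ, at 70.3% of members, was the highest share of any AP-1 list.

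Exact motif matches were counted in the RefSeq promoter windows, from 250 bases before to 50 after the start, on both strands. Windows were found for 31 of the 37 members (Psmb1, Psmb2, Psmb7, Psmc3, Psmd3 and Psmd7 had no entry) and for 16522 protein-coding genes. None of the 31 held a TRE (5.4% of all windows did) and none a CRE (2.64% of all). RefSeq places the start of Psmb8 474 bp, that of Psmb9 434 bp and that of Psme1 371 bp from the GENCODE start, so these windows, like that of Psmd13, do not cover the GENCODE start, and the Psmb8 CRE lies outside its window. In the wider window of 500 before to 100 after the start, where 9.82% of all genes held a TRE, the members still held 0. The ARE (TGACNNNGC, which can overlap a TRE) was found in 4 of 31, Psmb5, Psmb6, Psmc6 and Psmd12 (12.9%, against 15.0% of all). ETS letters (CCGGAAG) were found in 11 members (35.5%, against 13.4% of all), all of them constitutive, and NRF1 letters (GCGCANGCG) in 6 (19.4%, against 10.0% of all).

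The remaining motifs were found as follows. Sp1 (GGGCGG) was found in 18 (58.1%, against 51.0% of all), CCAAT in 12 (38.7%, against 42.1% of all), the PU.1 letters (ACTTCCT) in 5 (16.1%, against 10.5% of all), the interferon response letters (GAAANNGAA) in 5 (16.1%, against 9.58% of all), the E-box (CACGTG) in 3 (9.68%, against 9.18% of all), CEBP (TTGCNNAA) in 3 (9.68%, against 11.5% of all) and GAS (TTCNNNGAA) in 2 (6.45%, against 9.02% of all). A match describes the letters and is no proof of a bound site. The median GC content of the members' windows was 59.0%, beside 57.7% for all genes.

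**Figure D5:**
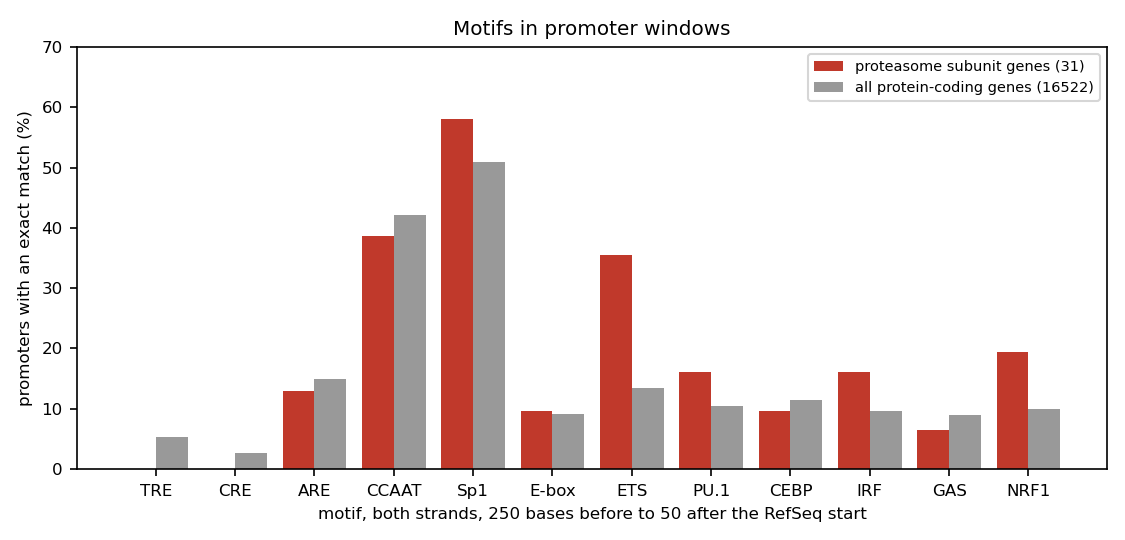
Share of promoter windows with at least 1 exact match (y axis, percent) for each motif (x axis), for the 31 proteasome subunit genes with a RefSeq window (red) and all 16522 protein-coding genes with one (grey). TRE and CRE have no red bar, and the ETS bar stands at 35.5% against 13.4%.

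The peaks themselves were searched in the same way. In the central 200 bp of the members' AP-1 peaks (236 peaks of genes with a RefSeq window, from 22 lists of more than 1000 peaks), a TRE was present in 12.7%, beside 14.7% of AP-1 peaks at all promoters and 34.9% of AP-1 peaks elsewhere. They belonged to Psma3, Psma5, Psmc6, Psmd4 and Psmd11, and since a site recurs from list to list, the peaks are not independent. An ARE was present in 27.1% of member peaks (15.0% of promoter peaks, 10 genes), interferon response letters in 17.8% (5.83% of promoter peaks, 9 genes), ETS letters in 16.1% (13.4%, 11 genes), PU.1 letters in 11.9% (11.7%, 6 genes) and a CRE in 1.27% (5.8%, Psmb8 only). Each of the 5 immune genes had the interferon response letters in at least 1 AP-1 peak, but not regularly. Psme2 had them in 1 of its 15 AP-1 lists, Psme1 in 1 of 2, Psmb8 in 2 of 5 and Psmb9 in 4 of 5. At Psmb10 a match 320 bp downstream of the start lay in the centre of a peak from each of its 7 AP-1 lists. The constitutive genes with such letters in a peak were Psma3, Psma4, Psmb3 and Psmb4.

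Genes that work with the proteasome showed a similar range, and 41.8% of all protein-coding promoters had an AP-1 peak in at least 1 list. All 5 genes of its transcriptional control had an AP-1 promoter peak in at least 1 list, led by the small Maf genes Mafk (19 lists) and Mafg (16), with Nfe2l1 itself in 3. Of 12 other regulators and assembly factors, 8 had one, and Pomp, the assembly chaperone, had peaks in 10 of 11 KLA but 1 of 14 Veh lists. The share of all promoters with the Pomp pattern was not computed, and the Veh lists included those of 463, 9 and 0 peaks. All 8 class I presentation genes had one, with H2-D1 in 17 lists and the peptide transporter gene Tap1 in 5, the same number as its neighbour Psmb9. The tissue-restricted subunits Psmb11, of the thymus, and Psma8, of the testis, had 0 AP-1 and 0 PU.1 peaks.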

How the data were processed

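ChIP-seq of AP-1 members and their partners was made by the authors in male mouse TGEMs. Reads were mapped with Bowtie2 to mm10 or, for Balb/cJ, to a genome with that strain's alleles whose positions were then moved back to mm10. Peaks were called with HOMER against input, and replicates were combined with idr 2.0.3 at a threshold of 0.05, per the methods and the submitters' processing notes. Per the file headers, the deposited lists give each peak a whole-number count, which is not scaled to library size and was used only to rank peaks within a list, and a scaled IDR score between 540 and 1000. The 4 input samples have no list, and the Balb/cJ Fos Veh list was empty.

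Peaks were assigned to the 5′ ends of protein-coding genes of GENCODE M21 when the midpoint lay within 1000 bp. A percentile is the midrank of a peak by count within its list, and the strongest peak was taken where a gene had several. The assignment was tested on simulated peaks against a direct search. Python 3.11.15, numpy 2.4.6, pandas 2.3.3 and matplotlib 3.10.9 were used. Promoter sequences came from RefSeq (GRCm38.p6) and peak sequences from the GRCm38.p6 genome. The ribosomal protein list took symbols of Rpl or Rps, a number and at most 1 letter.

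The members, gene lists, motifs and tests were chosen with earlier results of these data known. The genes described singly are the 5 immune genes, the 5 constitutive genes with the most AP-1 lists, those with none, and those that gained or lost a peak in the most factors of a contrast. With 1 list a condition, no p-value was computed. Alternatives covered the window, the start sites, the peak thresholds and list length. One related gene list is not reported here.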

Additional observations from a re-analysis of the deposited data

Results flagged for a closer look

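The number of constitutive promoters with a JunD peak differed between Veh and KLA in opposite directions in the 2 strains. KLA minus Veh was -2 in C57Bl/6EiJ, from 17 to 15 of 32 (15.0% and 17.0% of all promoters), and 7 in Balb/cJ, from 15 to 22 of 32 (19.5% and 23.7% of all promoters). With 1 list a condition, this difference between strains was not tested. The C57Bl/6EiJ lists held 19653 and 31640 peaks and the Balb/cJ lists 28652 and 33850. With the Veh and KLA lists held to equal length, JunD peaks were present at 17 and 7 of the 32 constitutive promoters in C57Bl/6EiJ (15.0% and 7.98% of all promoters) and at 15 and 16 in Balb/cJ (19.5% and 20.4% of all promoters).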

How the results depend on the processing

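Each share of member promoters was recomputed under the alternatives, and 411 of the 508 values stayed within the 95% Wilson or Newcombe interval of the value reported, without a change of sign. That interval reflects only the number of genes, taken as independent, and measures no spread between replicates. It is wide: the C57Bl/6EiJ ATF3 KLA share of 45.9% fell to 32.4% with a score of at least 830 and stayed within it. The 411 also include shares that were 0.0% throughout, as for C57Bl/6EiJ JunB Veh. The window (500 bp or 2 kb), overlap in place of the midpoint, other start sites and leaving out members with a neighbouring start moved none of the C57Bl/6EiJ ATF3, Jun, JunD and PU.1 shares beyond that interval. Peak strength did. With the strongest 50% of each list, the member shares were 13.5% (ATF3 Veh), 10.8% (ATF3 KLA), 16.2% (Jun Veh), 5.41% (Jun KLA), 24.3% (JunD Veh), 13.5% (JunD KLA), 32.4% (PU.1 Veh) and 43.2% (PU.1 KLA). With the strongest 5000 peaks, they were 2.7% for ATF3 Veh, Jun Veh, JunD Veh, PU.1 Veh and PU.1 KLA and 0.0% for ATF3 KLA, Jun KLA and JunD KLA. With a scaled IDR score of at least 830, they were 8.11% (Jun KLA), 27.0% (JunD Veh) and 43.2% (PU.1 KLA). Constitutive promoters with a peak in at least 1 of the 12 C57Bl/6EiJ AP-1 lists were 50.0% with that score and 37.5% with the strongest 50%, and immune promoters 20.0% with the strongest 50%. The shares of all promoters under these cuts are not given list by list, so the lower values describe no trait of the members. Pooled over the AP-1 lists, 32.5% of member combinations with a peak reached the upper 50% of their list, beside 37% over all genes.

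Differences below are in percentage points, KLA minus Veh, Balb/cJ minus C57Bl/6EiJ or PPARgKO minus C57Bl/6EiJ. With lists of equal length, KLA minus Veh was -13.5 for ATF3, -27.0 for JunD and -2.7 for Fos in C57Bl/6EiJ and -10.8 for ATF3 in Balb/cJ. With lists of equal length, Balb/cJ minus C57Bl/6EiJ in KLA was 8.11 for Jun, -5.41 for Fos and -2.7 for JunB, and PPARgKO minus C57Bl/6EiJ was 0.0 for Jun. With the strongest 50% of each list, KLA minus Veh was -2.7 for ATF3 and 2.7 for CEBPa in C57Bl/6EiJ and 0.0 for ATF3 and JunD in Balb/cJ. With a score of at least 830, KLA minus Veh was -8.11 for PU.1 and 8.11 for Balb/cJ ATF3, Balb/cJ minus C57Bl/6EiJ was 8.11 for JunD Veh and -8.11 for ATF3 KLA, and PPARgKO minus C57Bl/6EiJ was 13.5 for JunD. The 2 kb window gave 5.41 for CEBPa, KLA minus Veh, and RefSeq start sites, an alternative chosen after seeing the data, gave 6.45 for JunD Veh between strains. The ARE share was 32.3% in the window of 500 bases before to 100 after the start, above the 25.0% of all genes there, whereas in the window reported it was below that of all genes (12.9% against 15.0%). Beyond the lists' own construction, the cause of these changes was not tested. No paired analysis was possible because each condition has 1 list with its replicates already combined. The unknown library depths limit every comparison of lists.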
